A study of Takifugu fasciatus with 6 samples.

Results

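The genes described here are the hemoglobin chains of the pufferfish Takifugu fasciatus and alas2, the enzyme that starts heme synthesis in red blood cells, as measured in liver. Members were the rows of the count table whose best Swiss-Prot match was a protein named hemoglobin subunit or carried the gene name hba, hbb or alas2. The rule found 5 of the 20990 genes of the table: 3 alpha-type chains (hba, hba2 and HBAD), 1 beta chain (hbb) and alas2. Gene names are those of the match, which came from another species in every case.

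Hemoglobin is a tetramer of alpha-type and beta-type globin chains, each holding a heme, and it carries oxygen in red blood cells. In teleosts the alpha and beta genes lie intermingled in a pair of clusters, one beside MPG and NPRL3 and the other beside LCMT1, and red cells keep their nucleus and hold RNA in the circulation. Globin RNA in a dissected liver can therefore reflect the blood in the tissue and any immature red cells. The libraries do not show which cells held it. Heme is made by a chain of enzymes that begins and ends in the mitochondrion, and the first step is run by ALAS2 in red cells and by ALAS1 in most other cells, the hepatocyte included.

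The 6 libraries were made from the liver of juvenile fish, 3 for the control group (CG: G1, G2 and G3) and 3 for the experimental group (EG: Ga, Gb and Gc). All fish had been acclimated at 26 °C, and CG stayed at that temperature. EG was cooled from 26 to 19 °C, held there for 12 h, cooled to 12 °C and held for 24 h. Each library pooled the livers of 6 fish, and replicates within a group are therefore different pools. The paper describes 6 aquaria, divided into G1, G2 and G3 and Ga, Gb and Gc. Differences between pools and between tanks therefore cannot be told apart. No pool of one temperature is matched to a pool of the other. The sources used here do not say whether blood was removed from the livers.

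Counts summed to between 31150888 (G3) and 45548824 (Ga) per library. Levels are CPM, the counts of a gene as parts per 1000000 counts of the library after scaling by TMM (trimmed mean of M-values), which brings libraries to a common level through the bulk of their genes. The difference between EG and CG was tested by edgeR's quasi-likelihood method over the 14357 genes that passed a filter on low counts, and p-values were adjusted by Benjamini-Hochberg over all of them. A gene is said to have risen or fallen at an adjusted p under 0.05. At that threshold 21.7% of the tested genes were lower in EG and 23.7% were higher, and the median log2 fold change was -0.03. Markers of hepatocytes were present throughout (all 22 listed rows tested, summed level 236102 to 260414 CPM in CG and 284259 to 341878 CPM in EG). Those of exocrine pancreas, tissue that many teleosts carry inside the liver, varied between libraries of both groups, from 644.8 CPM in Gb and 6146 CPM in G3 to between 18066 and 26690 CPM in the other 4 libraries.

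The genes of the larger group lie side by side. On scaffold66 of the authors' assembly, whose build is not given in the sources used here, the HBAD match (fugu_GLEAN_10012068, 2716622 to 2717789, plus strand), hbb (fugu_GLEAN_10012069, 2719130 to 2719805, minus strand) and hba (fugu_GLEAN_10012070, 2721775 to 2722498, plus strand) follow each other with gaps of 1341 and 1970 bases. ARHGAP17 and LCMT1 lie before them and rhbdf1 and foxj1b after them. The fourth globin, hba2 (fugu_GLEAN_10017137), lies alone on scaffold101 (3446672 to 3447291, minus strand), 704 bases from Nprl3 and next but one to Mpg. Both positions are those of the teleost clusters. The coding lengths were 426 bases for HBAD, 432 bases for hba and for hba2, and 444 bases for hbb. The best match of hba was an alpha chain of the eelpout Lycodes reticulatus, that of hba2 an alpha-2 chain of Cottoperca gobio, and that of hbb a beta chain of Trematomus hansoni. The HBAD row is named after an alpha-D chain of a bird, the swift Apus apus, and the name is used here for the row only. The alas2 gene (fugu_GLEAN_10009787) is on scaffold13 (395372 to 398351, plus strand) with a coding length of 1824 bases, and its best match was the erythroid enzyme of the toadfish Opsanus tau.

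The abundant alpha chain hba2 stood at 2225, 3050 and 5589 CPM in G1, G2 and G3 and at 2762, 1955 and 1503 CPM in Ga, Gb and Gc. The groups overlapped, since Ga lay above G1, and G3 was the highest library by a wide margin. The log2 fold change of EG over CG was -0.80 ± 0.36 (SE, n = 3 and 3), and its adjusted p of 0.101 in edgeR's quasi-likelihood test did not pass.

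The beta chain hbb, the partner of the alpha chains in the tetramer, stood at 1928, 2707 and 4976 CPM in CG and at 2313, 1522 and 1161 CPM in EG. The libraries came in the same order as for hba2, and Ga again lay above G1. The log2 fold change was -0.94 ± 0.38 (SE), with an adjusted p of 0.0735 in edgeR's quasi-likelihood test, so the call was not made.

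The second abundant alpha chain, hba, stood at 1710, 2370 and 4566 CPM in CG and at 1546, 870.4 and 679.6 CPM in EG. Every EG library lay below every CG library, Ga by a narrow margin. The gene fell by 1.48 ± 0.42 on the log2 scale (SE), which is 2.79-fold lower in EG, with an adjusted p of 0.0217 in edgeR's quasi-likelihood test. Without G3, Gb or Gc the adjusted p was 0.0705, 0.0639 or 0.0708, so this call rested on each of those libraries.

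HBAD, the scarce alpha-type chain, stood at 18.3, 32.1 and 52.9 CPM in CG and at 13.5, 7.90 and 7.92 CPM in EG, from 249 to 1891 counts per library. The groups did not overlap. The row fell by 1.82 ± 0.39 on the log2 scale (SE), 3.52-fold, with an adjusted p of 0.00672 in edgeR's quasi-likelihood test.

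The level of alas2, whose product makes 5-aminolevulinate from glycine and succinyl-CoA, was 291.6, 403.0 and 683.4 CPM in CG and 189.0, 91.0 and 95.9 CPM in EG. The groups did not overlap, and the lowest CG pool stood well above the highest EG pool. The gene fell by 1.87 ± 0.39 on the log2 scale (SE), 3.67-fold, with an adjusted p of 0.00574 in edgeR's quasi-likelihood test.

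**Figure D1:**
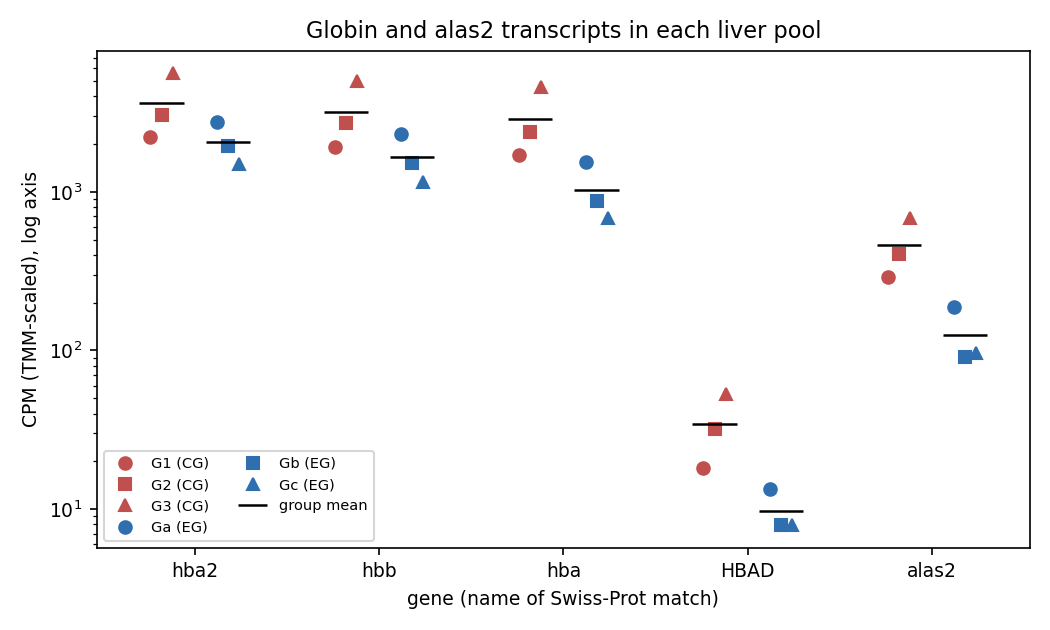
TMM-scaled CPM (log axis) of the 5 genes in each liver pool, with red symbols for CG, blue symbols for EG and a black line for each group mean. G3 is the highest pool for all 5 genes, Ga (2762 CPM for hba2) lies above G1 (2225 CPM) for hba2 and hbb, and all EG pools lie below all CG pools for hba, HBAD and alas2.

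Thus 3 of the 5 members fell, against 21.7% of all tested genes lower in EG at this threshold, and the same 3 also passed a fold change over 2, against 15.4% of all tested genes. In CPM the groups did not overlap for these 3 members, against 28.8% of all tested genes with every EG library lower and 29.0% with every EG library higher. All 5 estimates lay below 0. In pooled liver, fewer red cells and less RNA per red cell cannot be told apart.

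The members moved together within each group. G3 was the highest and G1 the lowest CG library for every member, and Ga was the highest EG library for every member. Over all tested genes G3 was the highest CG library for 35.7% and Ga the highest EG library for 34.4%. After the group mean was taken from each library, Pearson's r between pairs of members lay between 0.94 and 1.00 (6 residuals of log2 CPM, which share library and scaling). The spread between pools was wide: the SD over 3 pools was 48.4% of the mean for hba2 in CG and 30.7% in EG.

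Per kilobase of coding length the order of the mean levels in CG was hba2, hbb, hba, alas2 and HBAD, at 8383 ± 4059, 7216 ± 3566, 6671 ± 3462, 251.8 ± 110.7 and 80.8 ± 41.0 CPM per kb (SD, n = 3). In each of the 6 pools hba2 stood above hbb and hbb above hba. In EG the order was the same, at 4799 ± 1476, 3751 ± 1327, 2389 ± 1054, 68.7 ± 30.3 and 22.9 ± 7.51 CPM per kb. By this measure hba2 ranked 10th of all genes in CG and 19th in EG, while hba ranked 14th and 54th and alas2 317th and 991st.

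The 4 globin rows took 0.666%, 0.896% and 1.74% of all counts in G1, G2 and G3 and 0.546%, 0.424% and 0.294% in Ga, Gb and Gc. The groups did not overlap in this share, whose mean was 1.10% ± 0.57 in CG and 0.421% ± 0.126 in EG (SD, n = 3). The share divides by library totals without TMM scaling, and its separation depends on that choice. In TMM-scaled CPM hba2 and hbb overlapped between the groups, with hba2 at 2225 CPM in G1 and 2762 CPM in Ga. The 95% Wilson interval was 1.736% to 1.745% in G3 and 0.292% to 0.295% in Gc, and such intervals cover counting error only. With the transferrin row (tf), 13.0% to 18.4% of the counts of a library, left out of the total, the mean share was 1.32% in CG and 0.487% in EG.

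Ratios of counts between members of 1 library need no scaling between libraries. Per 1000 counts of hba2, alas2 had 131.1, 132.1 and 122.3 counts in CG and 68.4, 46.5 and 63.8 counts in EG. The CG pools lay within a CV of 4.21% of each other, although their hba2 levels spanned 2225 to 5589 CPM, and all EG pools were lower, by 2.18-fold on average. HBAD gave 8.21, 10.5 and 9.47 counts per 1000 hba2 counts in CG and 4.87, 4.04 and 5.27 in EG. These groups were also apart, by 1.99-fold.

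The balance of the alpha chains differed too. For each hba2 count there were 0.768, 0.777 and 0.817 hba counts in CG and 0.560, 0.445 and 0.452 in EG, a difference of 1.63-fold. Put as a share, hba made up 43.4% to 45.0% of the hba and hba2 counts in CG and 30.8% to 35.9% in EG. Both rows encode related chains from different clusters and may share reads, so the exact balance is uncertain.

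The smallest shift was that of hbb, at 0.866, 0.888 and 0.890 counts per hba2 count in CG and 0.837, 0.778 and 0.773 in EG. The groups were apart by 1.11-fold. Over all 4 globin rows of both clusters, alpha-type counts per kb divided by beta counts per kb gave 2.11, 2.07 and 2.11 in CG and 1.92, 1.91 and 1.94 in EG. For the rows found, alpha-type counts per kb were thus 1.91 to 2.11 times beta counts per kb in every pool, and the groups did not overlap. The only beta row found was hbb, and whether the table misses a beta gene was not tested.

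Ratios among the 3 genes that fell shifted less than the ratios of these genes to hba2. This follows in part from grouping the genes by their fall. HBAD per 1000 alas2 counts was 62.7, 79.6 and 77.5 in CG and 71.2, 86.9 and 82.6 in EG, and the groups overlapped. HBAD per 1000 hba counts overlapped as well, whereas alas2 per 1000 hba counts was 149.7 to 170.6 in CG and 104.5 to 141.1 in EG. The two-sided exact permutation p was 0.1 for each of the ratios to hba2, the smallest that 3 against 3 libraries can give, so none of these differences could pass a threshold of 0.05. With hbb as the denominator, a choice made after seeing the data, the groups were apart by 1.97-fold for alas2, 1.80-fold for HBAD and 1.47-fold for hba.

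**Figure D2:**
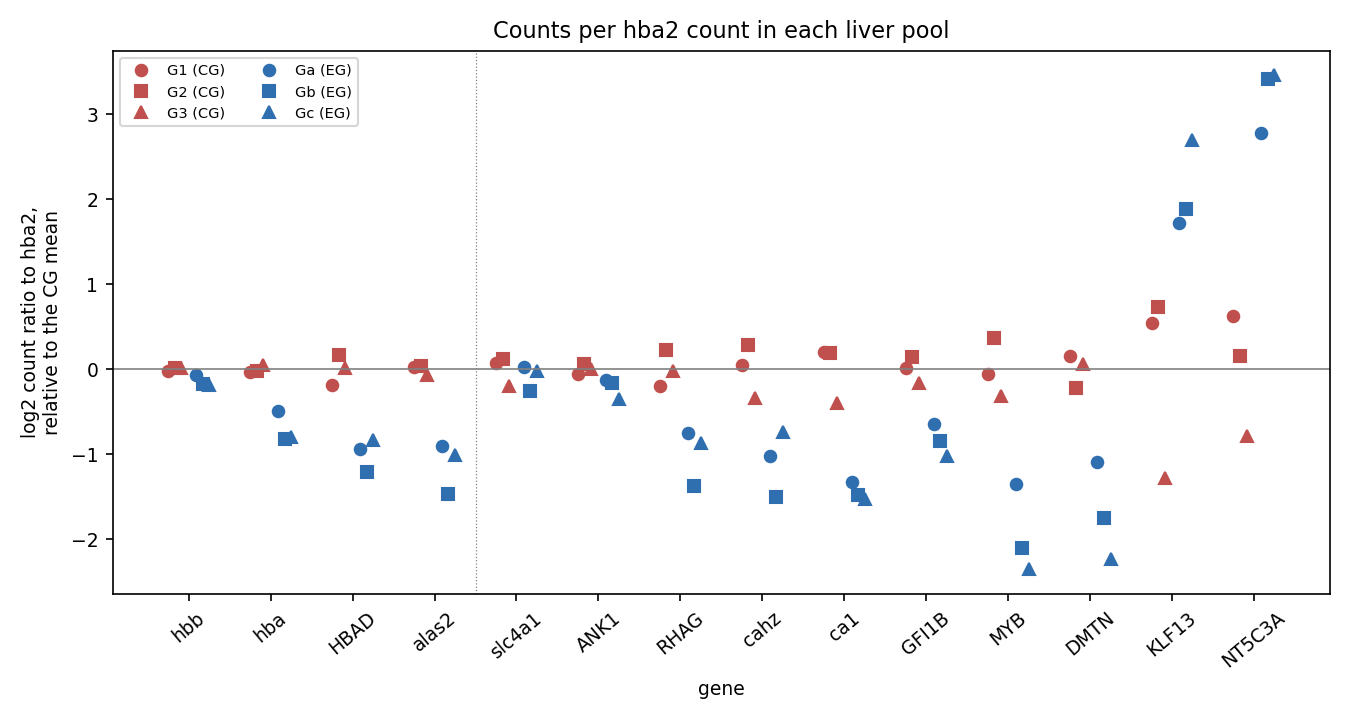
Counts per hba2 count in each pool, as log2 relative to the CG mean of the same gene, for the 4 other members (left of the dotted line) and for 10 red cell genes chosen after their values were seen (right). The slc4a1 ratio overlaps between CG (red) and EG (blue), hbb and ANK1 differ by a small amount, and the EG pools lie lower for hba, HBAD, alas2, RHAG, cahz, ca1, GFI1B, MYB and DMTN and higher for KLF13 and NT5C3A.

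The other enzymes of heme synthesis did not move as one group. Of 10 rows analysed here, 9 were tested: 2 rose, 3 fell with alas2 among them, and 4 did not pass. Over all tested genes 23.7% were higher and 21.7% lower. The median log2 fold change of the 9 rows, alas2 included, was -0.67 beside -0.03 over all tested genes. At the first step alas1, the enzyme of most tissues, stood at 80.3, 93.4 and 88.1 CPM in CG and at 58.9, 165.4 and 179.9 CPM in EG. Gb and Gc lay above CG and Ga below it, and the log2 fold change of 0.63 ± 0.36 (SE) did not pass (adjusted p = 0.194, edgeR's quasi-likelihood test). Without Ga the log2 fold change was 0.99, with an adjusted p of 0.00281.

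A rise followed at the next step. ALAD, which joins a pair of aminolevulinate molecules to porphobilinogen, was at 5.56, 5.44 and 5.04 CPM in CG and at 10.1, 8.19 and 7.57 CPM in EG (log2 fold change 0.69 ± 0.19 SE, adjusted p = 0.0182, edgeR's quasi-likelihood test). The rise of ALAD was lost with library totals (adjusted p = 0.186) and with upper quartile factors (adjusted p = 0.0546) in place of TMM and without G1, G2 or G3 (adjusted p = 0.0562, 0.0579 or 0.0649).

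Further on, enzymes were lower or level. UROS, which closes the ring, fell from 6.23, 5.69 and 9.07 CPM to 2.83, 3.90 and 3.98 CPM, by 0.97 ± 0.26 on the log2 scale (SE, adjusted p = 0.0166, edgeR's quasi-likelihood test), and did not pass without G3 (adjusted p = 0.0666). The following enzyme, urod, was at 10.3 to 13.1 CPM in CG and at 10.2 to 13.2 CPM in EG, and its log2 fold change of 0.03 ± 0.17 (SE) did not pass. CPOX, the mitochondrial coproporphyrinogen oxidase, fell from 38.9, 33.0 and 31.6 CPM to 8.18, 8.10 and 10.03 CPM, by 1.98 ± 0.16 on the log2 scale (SE), with an adjusted p of 0.000114 in edgeR's quasi-likelihood test. The CG pools varied less for CPOX than for alas2, and the estimates of both genes differed by less than the SE of alas2.

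The last steps were measured at low levels. A pair of adjacent PPOX rows, the protoporphyrinogen oxidase that comes before ferrochelatase, was at 4.35 to 4.72 and 2.20 to 3.14 CPM in CG and at 2.45 to 3.62 and 1.07 to 1.90 CPM in EG. The log2 fold changes of -0.67 and -0.93 did not pass (adjusted p = 0.0538 and 0.0554, edgeR's quasi-likelihood test), although the groups did not overlap, and both rows passed with library totals, upper quartile factors, limma-voom, DESeq2 and without Gb. Ferrochelatase, fech, which inserts the iron, was at 5.23, 4.30 and 7.22 CPM in CG and at 9.35, 9.37 and 7.81 CPM in EG. Its rise of 0.66 ± 0.23 on the log2 scale (SE) passed narrowly (adjusted p = 0.046, edgeR's quasi-likelihood test) and did not pass with library totals (adjusted p = 0.329), with upper quartile factors (adjusted p = 0.13) or without any one of G1, G2, Ga, Gb or Gc.

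**Figure D3:**
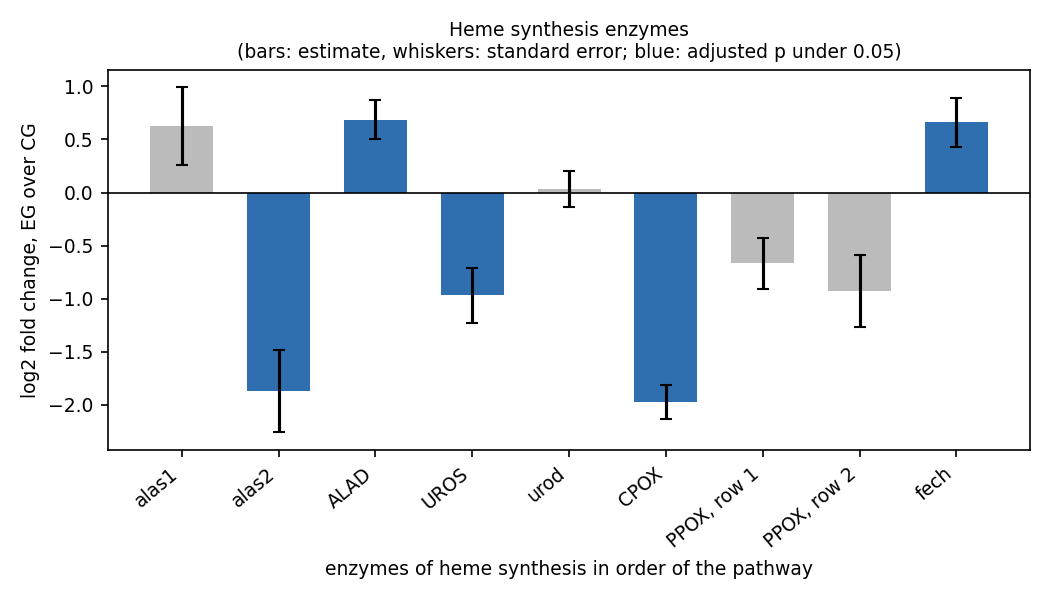
Log2 fold change of EG over CG with its standard error for the 9 tested rows of the heme synthesis enzymes, in the order of the pathway; blue bars have an adjusted p under 0.05 in edgeR's quasi-likelihood test. CPOX (-1.98) and alas2 (-1.87) lie lowest, ALAD (0.69) and fech (0.66) rose, and alas1, urod and both PPOX rows did not pass.

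Genes of the mitochondrion that serve heme and iron-sulfur synthesis went both ways: of 20 tested rows 6 rose, 4 fell and 10 did not pass (median log2 fold change 0.25). These counts lie close to the 23.7% of all tested genes that were higher and the 21.7% that were lower. The rises were led by a row of slc25a28, the iron importer mitoferrin-2, and a row of Iscu, the scaffold on which iron-sulfur clusters form. The slc25a28 row was at 20.2 to 22.8 CPM in CG and at 143.6 to 210.7 CPM in EG. The Iscu row was at 40.7 to 59.1 CPM in CG and at 344.1 to 465.5 CPM in EG. The log2 fold change was 2.99 for each. Nfs1, the cysteine desulfurase that supplies the sulfur, rose by 1.60 on the log2 scale. The largest falls were those of a scarce tmem14c row (-2.23), slc25a39 (-1.17), a mitochondrial glutathione carrier, and FAM210B (-1.09).

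Iron supply showed 7 rises and 1 fall among 12 tested rows (median log2 fold change 1.04). Over all tested genes 23.7% were higher and 21.7% lower. The 2 rows of TFRC, the transferrin receptor through which red cell precursors and other cells take up iron, rose by 1.33 and 1.74 on the log2 scale. The more abundant TFRC row was at 205.1, 317.3 and 401.5 CPM in CG and at 684.2, 831.9 and 807.4 CPM in EG, without overlap. A row each of Slc11a2, an iron transporter of endosomes, and Pcbp2, an iron chaperone, rose by 1.68 and 1.59. A row of ferroportin, slc40a1, which releases iron from cells, fell from 255.9, 193.0 and 269.4 CPM to 12.0, 35.6 and 33.0 CPM. The fall was 3.16 on the log2 scale, and no other tested row of the list fell. Iron handling genes are expressed by hepatocytes as well as red cells, and the libraries do not separate the cell types.

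Genes that bind, move or break down heme showed 3 rises, 4 falls and 7 rows that did not pass among 14 tested rows (median log2 fold change -0.47). These counts lie close to the shares over all tested genes, 23.7% higher and 21.7% lower. HP, haptoglobin, which binds free hemoglobin in plasma, was at 2446, 1276 and 3527 CPM in CG and at 13257, 11592 and 3490 CPM in EG. It rose by 1.97 ± 0.53 on the log2 scale (SE, adjusted p = 0.017, edgeR's quasi-likelihood test), but Gc lay just under G3, and the call was lost without G1 or Ga (adjusted p = 0.0575 or 0.0521). The heme-binding plasma protein hemopexin, hpx, rose by 0.99 with the same overlap, and FLVCR2 rose by 0.56. Both of these calls were lost with library totals (adjusted p = 0.0997 and 0.392) and without any one of several libraries. Rows of HEBP1, slc48a1b and BLVRB, of which the last was matched to a flavin reductase, fell by 1.69, 1.40 and 1.01 on the log2 scale. Heme oxygenase, hmox, which opens the heme ring and was named after its values were seen, rose by 0.88 from 19.3 to 23.7 CPM to 32.7 to 51.2 CPM, a call that was lost with library totals (adjusted p = 0.0856). Without G1 the calls of HP, hpx and FLVCR2 were all lost.

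Of the other members of the globin family, 7 rows were found and 3 had enough counts to be tested. Neuroglobin (ngb) and both cygb2 rows had no count in any library, and myoglobin (mb) had 6 counts in Ga and none elsewhere. Among the 3 tested rows, a row of Adgb, androglobin, fell by 0.83 on the log2 scale, from 7.44 to 9.91 CPM to 4.26 to 5.11 CPM.

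Genes that mark red cells beyond the members were taken from 3 lists: membrane and cytoskeleton, enzymes, and regulators. These lists, like the others, were chosen with earlier results of these data known, so their counts are description only. Of 44 tested rows 22 fell, against 21.7% of all tested genes, and 6 rose, against 23.7%. The membrane list had 10 falls and 1 rise among 16 tested rows (median log2 fold change -0.98), the regulators 8 falls and 2 rises among 18 (median -0.69), and the enzymes 4 falls and 3 rises among 10 (median 0.01). Several of these genes are also expressed outside red cells. Without G3 the 3 lists together held 16 falls and 2 rises, and the regulators 4 falls, or 5 without Gb. With library totals, which lower the median of all genes to -0.37, they held 28 falls and 3 rises. The shares of all tested genes at the threshold were not computed for these settings. Genes of the whole table that fell with a fold change over 2 numbered 2208 in the main fit, 1850 without G3 and 3380 with library totals.

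In the membrane list the largest falls were those of Add2, the beta-adducin of the cytoskeleton (-2.39), DMTN, the actin-bundling dematin (-2.31), and a scarce row of Epb41, protein 4.1 (-2.28). The largest rise was that of the water channel Aqp1 (4.10), from at most 0.33 CPM in CG to between 0.53 and 3.30 CPM in EG. The anion exchanger band 3, slc4a1, the main membrane protein of red cells, stood at 61.7, 86.8 and 128.5 CPM in CG and at 73.6, 42.9 and 38.9 CPM in EG. Ga lay above G1, as for hba2 and hbb, and the log2 fold change of -0.83 ± 0.32 (SE) did not pass (adjusted p = 0.0671, edgeR's quasi-likelihood test). The abundant slc4a1 row passed with library totals, upper quartile factors and DESeq2 and without G1 or Ga (adjusted p = 0.0437 or 0.0216). A second, scarce slc4a1 row had a log2 fold change of -0.13.

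Among the red cell enzymes, carbonic anhydrase rows matched to ca1 and to the zebrafish gene cahz fell by 2.15 and 1.82 on the log2 scale. A row of catalase, cat, fell by 1.91. The level of ca1 was 34.7, 47.2 and 57.7 CPM in CG and 15.0, 9.52 and 7.05 CPM in EG, without overlap. The rises were those of 2 rows of NT5C3A, a pyrimidine nucleotidase (2.48 and 1.23), and of GLRX, glutaredoxin (0.69). Only the larger NT5C3A rise was kept with library totals and with upper quartile factors (adjusted p = 0.0831 and 0.0561 for the other row, 0.229 and 0.0656 for GLRX). Of the regulators, MYB, a factor of blood progenitors, fell by 2.52 from 5.54, 10.2 and 11.6 CPM to 2.80, 1.17 and 0.76 CPM. The erythroid factors lmo2 and GFI1B fell by 1.82 and 1.56, and KLF13 and a row of JAK2, the kinase of the erythropoietin receptor, rose by 1.30 and 0.84. The JAK2 call was lost with library totals (adjusted p = 0.163) and upper quartile factors (adjusted p = 0.0766). No row of the table analysed here carried the name GATA1, KLF1 or EPOR.

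**Figure D4:**
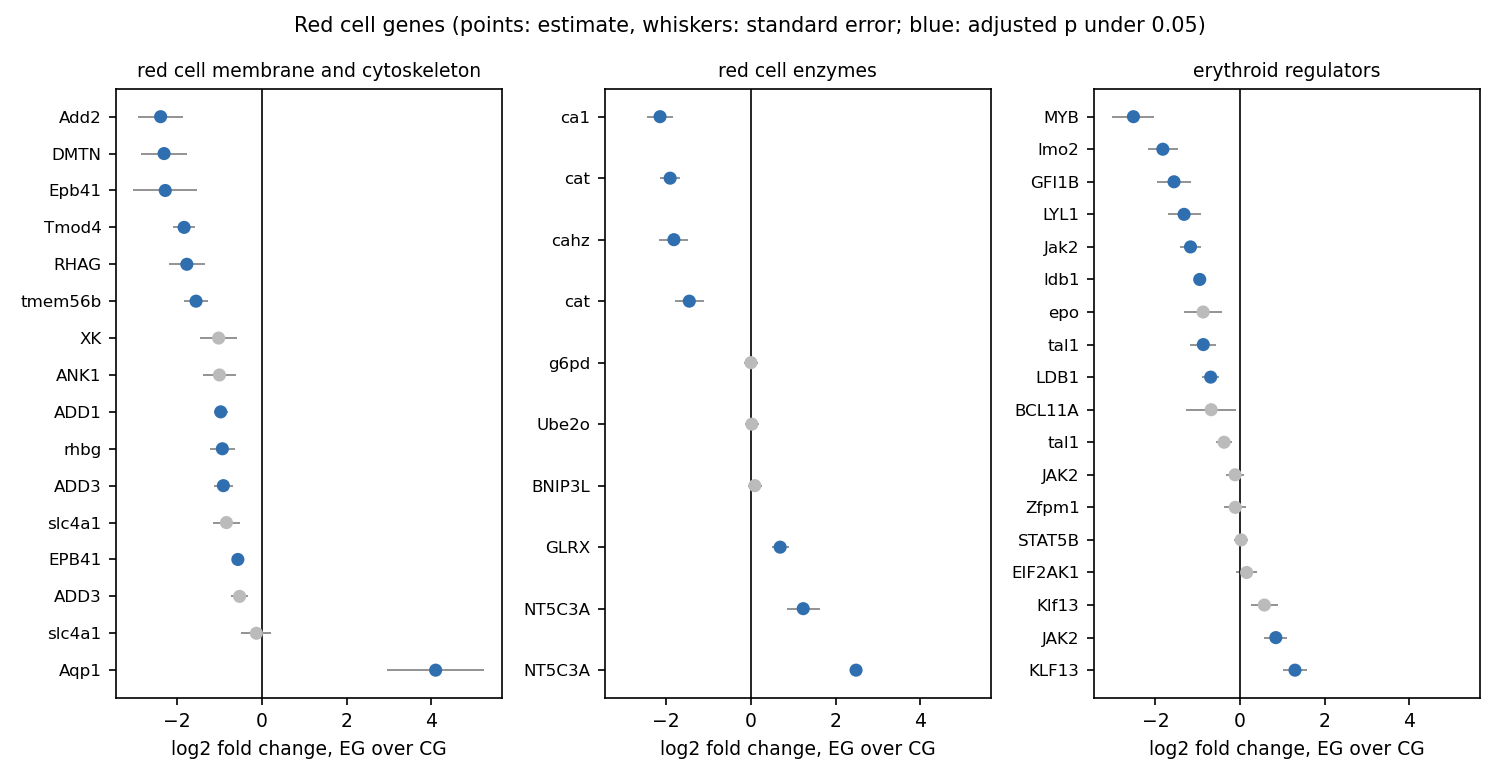
Log2 fold change of EG over CG with its standard error for the 44 tested rows of 3 red cell lists, each row labelled by the gene name of its match; blue points have an adjusted p under 0.05 in edgeR's quasi-likelihood test. The lists hold 10, 4 and 8 falls, the largest that of MYB (-2.52), and the 6 rises include Aqp1 (4.10) and NT5C3A (2.48).

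Set against hba2 counts, the red cell genes separated into rows that were level with the abundant globins, rows that were lower and rows that were higher. The examples that follow were chosen after their values were seen. Band 3 gave 27.7, 28.4 and 23.0 counts per 1000 hba2 counts in CG and 26.6, 21.9 and 25.9 in EG, so slc4a1 overlapped between the groups. Ankyrin-1, ANK1, which ties band 3 to the cytoskeleton, gave 43.9, 47.8 and 45.7 in CG and 42.0, 40.8 and 35.8 in EG, lower by 1.16-fold. Per 1000 hbb counts ANK1 overlapped between the groups, at 50.6, 53.9 and 51.3 in CG and 50.1, 52.4 and 46.3 in EG.

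By contrast RHAG, the Rh-associated gas channel, gave 15.0, 20.2 and 16.9 counts per 1000 hba2 counts in CG and 10.2, 6.66 and 9.45 in EG. The carbonic anhydrase row ca1 gave 15.6, 15.5 and 10.3 in CG and 5.41, 4.87 and 4.69 in EG. MYB gave 2.49, 3.33 and 2.08 in CG and 1.01, 0.601 and 0.506 in EG. All 3 were apart between the groups, by log2 differences of -0.996, -1.44 and -1.94. The more abundant NT5C3A row went the other way, at 2.49, 1.80 and 0.932 counts per 1000 hba2 counts in CG and at 11.1, 17.2 and 17.7 in EG, and KLF13 was at 8.07, 9.24 and 2.28 in CG and at 18.3, 20.5 and 36.1 in EG. Over the 43 red cell rows with a ratio, 11 were lower per hba2 count in every EG library, 8 were higher (2 rows each of NT5C3A, KLF13 and JAK2, and GLRX and EIF2AK1) and 24 overlapped, whereas over all genes 4.77% were lower and 32.7% higher. Per hbb count 8 rows were lower and 8 higher, and ANK1, lmo2 and LYL1 were no longer apart. The share over all genes was not computed for hbb, so these counts have no background beside them.

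The genes whose levels followed hba2 most closely over the 6 libraries were ANK1 (Pearson's r = 0.99 on log2 CPM), TRIM2 (0.97), sox6 (0.97), PRDX1 (0.97) and slc4a1 (0.97), out of 5678 candidates with a mean of at least 10 CPM. Those that followed alas2 were MAN1C1, SLC6A13, RBM38, Fhdc1 and Esyt1, with r from 0.99 to 1.00. RBM38, an RNA-binding protein, was at 28.5, 32.4 and 63.4 CPM in CG and at 13.2, 6.0 and 5.88 CPM in EG. With the group means taken out, hba2 was followed by Tnfrsf23, ZBTB26, gata2, ANK1 and AMPD2, and alas2 by Rtp3, Fhdc1, fcho1, MAN1C1 and ATP6V1F (r from 0.99 to 1.00). These values describe 6 points that share libraries and scaling. They are the highest of 5678 candidates, and the r that such a search reaches among unrelated genes was not computed. Whether the named genes track hba2 or alas2 beyond that search was therefore not tested.

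Markers of the other cell types a liver pool can hold were read against the 21.7% of all tested genes that were lower and the 23.7% that were higher. Those of thrombocytes, the nucleated clotting cells of fish, had 10 falls and no rise among 13 tested rows (median log2 fold change -1.27), led by Gp5 (-3.62), F13A1 (-1.81) and ITGB3 (-1.76), and their summed level was 194.3 to 216.5 CPM in CG and 91.7 to 161.4 CPM in EG. Without G2, G3 or Gc 6 thrombocyte rows fell. The F13A1 call was lost without any one of G1, G2, G3, Ga or Gc. Leukocyte markers had 6 falls and no rise among 20 tested rows (median -0.75), led by ikzf1 (-3.55), CORO1A (-2.18) and CD79B (-2.11), at a summed 104.5 to 165.4 CPM in CG and 49.9 to 92.4 CPM in EG. The other 14 leukocyte rows did not pass, and leaving out 1 library gave 3 falls (without G1, G3 or Gb) to 9 falls (without Ga). The CD79B call was lost without any one of G1, G2, G3, Gb or Gc. Endothelial and stellate markers had 7 falls and no rise among 33 tested rows (median -0.44), a share close to that of all tested genes, with the largest falls in LRAT (-2.32), STAB2 (-2.13) and Fli1 (-1.35), at a summed 1660 to 2189 CPM in CG and 1128 to 1925 CPM in EG. Leaving out 1 library gave 6 falls (without G2 or G3) to 11 falls and 2 rises (without Gc). One row each of DES, Esam and Col1a2 had no count in any library.

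Hepatocyte markers had 11 rises and 2 falls among 22 tested rows (median 0.43), with the largest rises in C3 (1.15), FGA (1.09) and TTR (1.08) and the falls in SERPINA1 (-0.95) and FETUB (-0.79). Without G3, Ga or Gc 7 rows rose, and with library totals 5 rose. None of 13 exocrine pancreas rows passed, with a median of -0.30, and the Cuzd1 row had no count. The part of these cell types in the levels of the members was not tested. G3, the library with the most globin RNA, was one of the 2 with little pancreas RNA, and Gb was the other.

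**Figure D5:**
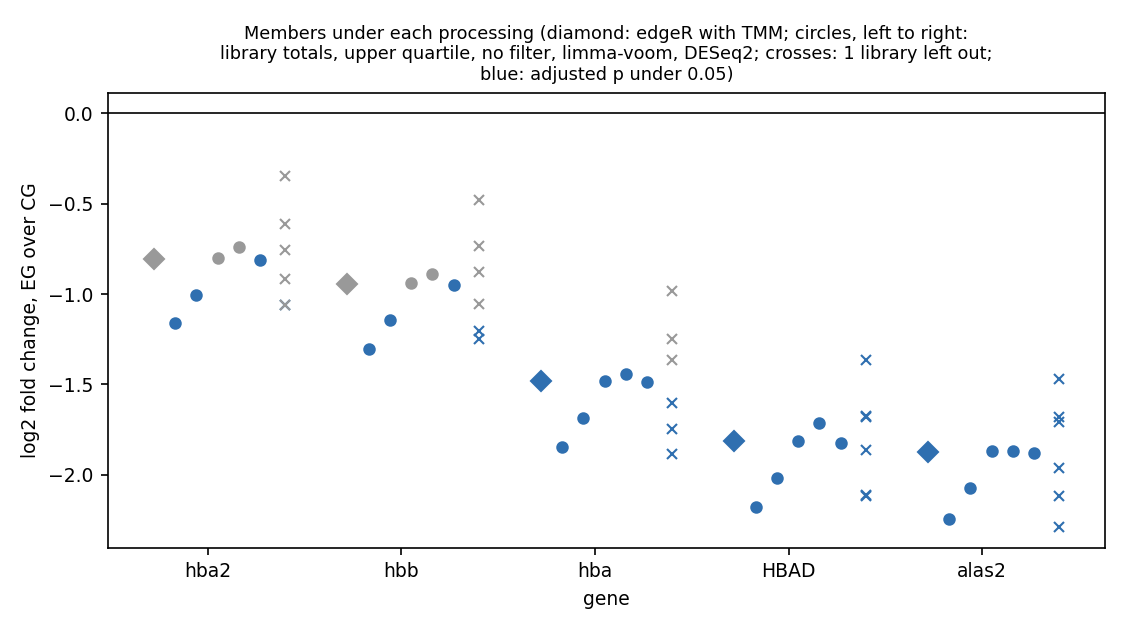
Log2 fold change of EG over CG of the 5 members in edgeR with TMM (diamonds), under library totals, upper quartile factors, no filter, limma-voom and DESeq2 (circles, left to right) and with 1 library left out (crosses); blue symbols have an adjusted p under 0.05. All values lie below 0, those of HBAD and alas2 are all blue, and those of hba2 run from -1.16 to -0.35.

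All 5 estimates stayed below 0 under every processing tried. HBAD and alas2 passed under each of them, and hba passed except without G3, Gb or Gc. By contrast hbb and hba2, which did not pass here, passed with library totals, with upper quartile factors and in DESeq2.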

How the data were processed

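RNA was measured in 6 libraries of pooled livers, 3 CG and 3 EG. The authors mapped trimmed reads with HISAT2 2.0.4 to their own unpublished T. fasciatus assembly, and the labels also list RSEM 1.2.3. The deposited table gives whole-number counts per gene, without normalization, and only these counts were used. Its FPKM values, group means and the fold changes and p-values of the authors' own DESeq comparison were not used. Some genes of the table are not reported here. Genes carry the name of their best Swiss-Prot match (17064 of 20990 genes), and paralogs of one name may share reads. Whether counting used strand is not given in the sources used here. Lengths are coding lengths, since 96.6% are multiples of 3.

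In R 4.3.3 with edgeR 4.0.16, genes were filtered by filterByExpr, scaled by TMM (factors 1.0976 to 1.1465 in CG, 0.8238 to 0.9724 in EG) and tested with the quasi-likelihood F statistic, with p-values adjusted by Benjamini-Hochberg over 14357 genes. Differentially expressed genes (DEGs) also had a fold change over 2. The common biological coefficient of variation was 29.6%. The procedure was checked on counts simulated from CG means at a single dispersion, with 200 changed genes planted. So few changed genes cannot test the choice of scaling. The alternatives were library totals, upper quartile factors, no filter, members left out of the scaling, limma-voom (limma 3.58.1), DESeq2 1.42.0 with its own size factors (1 fit), and each library left out. Log2 CPM used a prior count of 2. The sources state no batch of library work, so batch and temperature cannot be told apart if they went together.

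The members and the 13 gene lists were chosen with earlier results of these data known. Named genes are all members, all tested heme synthesis enzymes, up to 3 rows with the largest rise and up to 3 with the largest fall past the threshold in each other list, slc4a1, TFRC and hpx, and the 5 rows most alike to hba2 and to alas2. ANK1, RHAG and hmox were named after their values were seen. A value given under a name is that of a single row, and other rows of the same name may differ.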

Additional observations from a re-analysis of the deposited data

How the results depend on the processing

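With library totals, hbb and hba2 passed at log2 fold changes of -1.30 and -1.16, with upper quartile factors at -1.15 and -1.01, and in DESeq2 at -0.95 and -0.81 (adjusted p = 0.0172 and 0.0228, 0.0377 and 0.0498, and 0.0198 and 0.0413). Library totals moved the DEGs from 1961 higher and 2208 lower to 1225 and 3380 (26.6% higher in place of 47.0%), and upper quartile factors gave 1483 and 2823 (34.4%). These scalings shift the median log2 fold change of all genes to -0.37 and -0.22, by about as much as they shift each member. With 1 library left out in turn, the log2 fold change ran from -2.29 to -1.47 for alas2, from -2.12 to -1.37 for HBAD, from -1.89 to -0.98 for hba, from -1.25 to -0.48 for hbb and from -1.06 to -0.35 for hba2. The highest value came without G3 in each case. Without G1 both hbb (adjusted p = 0.0387) and hba2 (0.0477) passed, and without Ga hbb passed (0.0459). The cause was not tested. The log2 count ratio to hba2 ran from -1.24 to -0.96 for alas2, from -1.09 to -0.88 for HBAD and from -0.81 to -0.65 for hba.

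Direction was lost for urod, with library totals (-0.31) and upper quartile factors (-0.16) and within -0.046 to 0.14 with 1 library left out (below 0 without G1 or Gc), and for the scarce slc4a1 row, within -0.40 to 0.012 with 1 library left out (above 0 without G1 or Gc). The heme synthesis enzymes counted 0 rises and 5 falls with either of these scalings, and 2 rises and 5 falls in DESeq2 and limma-voom. Among the members, the call of hba was lost without G3, Gb or Gc (adjusted p = 0.0705, 0.0639 or 0.0708, edgeR's quasi-likelihood test). Calls of Aqp1 and GFI1B were lost without G3 (adjusted p = 0.0644 and 0.0543 in the same test). Those of UROS (without G3), HP (without G1 or Ga) and ALAD (without G1, G2 or G3) were lost as well. Each without 3 or more of the libraries in turn, so were those of fech, hpx, FLVCR2, GLRX, JAK2, the scarcer NT5C3A row, Epb41, CD79B, F13A1 and FETUB. Of the other values that do not answer a main comparison, 878 kept their call or size, 70 lost their call, 16 gained one, 61 moved in size and 6 changed direction. Leaving the members out of the scaling and leaving out the filter changed no call of a member. No paired analysis was possible because the CG libraries carry numbers and the EG libraries letters, so no replicate is matched. The abundant globins had at least 23243 counts in every library, and the CV between pools was 48.4% for hba2 in CG.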
